A study of Rattus norvegicus with 12 samples.

Results

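The Schwann cell and myelin genes S100b, Mbp, Pmp22, Prx, Sox10 and Ngfr were followed in the esophagus of rats given the carcinogen N-nitrosomethylbenzylamine (NMBA) and of control rats. Members were taken by the gene symbol that the platform annotation gives to each probe set, which found 6 of the 14217 genes and 9 of the 31042 probe sets analysed. S100b, Sox10, Prx and Ngfr had 1 probe set each, Pmp22 had 2 and Mbp had 3. The brightest probe set of a gene, by its mean across arrays, stood for it, and the other probe sets of Mbp and Pmp22 are given beside it.

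RNA was measured on 12 Affymetrix expression arrays in 4 groups of 3: normal controls, and rats 6, 15 and 29 weeks into or after NMBA, which the labels call early, middle and late stages of tumor development. NMBA is a nitrosamine that gives rise to squamous tumors of the rat esophagus, and it was injected under the skin at 0.3 mg/kg in 0.2 ml, 3 times a week over 5 weeks, while controls received the solvent. Rats lived 3 to a cage, and the tissue was a portion of esophagus from which submucosa and muscle had been stripped. Whether weeks count from the first or the last injection is not stated in the labels. Strain, sex, age and the week at which controls were taken are likewise not given in the sources used. Nothing in the labels says that the arrays come from separate animals, and p-values therefore measure only how far these samples spread, which may be technical.

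Schwann cells are the glia of peripheral nerves. They wrap axons, and around thick axons they lay down compact myelin, a stack of membrane held together by proteins such as myelin basic protein (Mbp) and peripheral myelin protein 22 (Pmp22). The esophageal wall carries vagal fibers to its muscle, which is striated in the rat, as well as enteric nerve plexuses and fine sensory fibers that reach the mucosa. S100b, a calcium-binding protein, and Sox10, the transcription factor that glia of the neural crest need, mark these cells. Prx (periaxin) links the myelin sheath to the matrix outside it, and Ngfr is the low-affinity receptor for nerve growth factor and related neurotrophins. None of these genes is limited to Schwann cells: S100b is also made by adipocytes and melanocytes, Sox10 by melanocytes, Pmp22 by fibroblasts and epithelia, and Ngfr by basal keratinocytes.

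Sox10 acts on several myelin genes, so the promoter windows of the members were searched for ACAAAG and ACAATG, letters that SOX factors bind, on both strands. RefSeq windows of 300 bases (build GRCr8) were at hand for 4 of the 6 members, in 5 windows. Sox10 and Ngfr had none. Windows are shown for the genes with a probe set lower at week 15 (S100b, Pmp22 and, of its windows, the Mbp window that holds matches), with the matches in capitals. They lie at chr20:12381032-12381331 on the minus strand for S100b, at chr10:48294682-48294981 on the plus strand for Pmp22 and at chr18:78209995-78210294 on the plus strand for Mbp.
S100b: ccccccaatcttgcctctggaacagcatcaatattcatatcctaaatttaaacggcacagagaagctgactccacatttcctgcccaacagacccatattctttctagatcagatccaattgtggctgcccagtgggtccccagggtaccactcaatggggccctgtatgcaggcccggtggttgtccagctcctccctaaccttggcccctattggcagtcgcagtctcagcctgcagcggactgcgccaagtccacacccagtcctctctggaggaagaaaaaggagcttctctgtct
Pmp22: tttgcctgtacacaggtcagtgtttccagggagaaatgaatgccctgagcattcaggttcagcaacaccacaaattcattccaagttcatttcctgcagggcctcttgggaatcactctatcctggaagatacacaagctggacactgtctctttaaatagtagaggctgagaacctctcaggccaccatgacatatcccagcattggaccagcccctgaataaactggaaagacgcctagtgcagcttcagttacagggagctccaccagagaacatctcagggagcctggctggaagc
Mbp: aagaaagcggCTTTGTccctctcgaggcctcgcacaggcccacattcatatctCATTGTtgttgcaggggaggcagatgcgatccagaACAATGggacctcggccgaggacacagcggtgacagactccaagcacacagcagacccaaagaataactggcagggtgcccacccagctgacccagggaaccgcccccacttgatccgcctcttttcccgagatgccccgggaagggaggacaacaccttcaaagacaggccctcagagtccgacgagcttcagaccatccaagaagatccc
The Mbp window held 3 matches, which began 240, 197 and 162 bases before the annotated start, the first with the letters of ACAAAG on the opposite strand and the others with those of ACAATG. The S100b, Pmp22 and Prx windows and the other Mbp window held none. Of 33469 promoter windows of this length, 18.8% held ACAAAG, 13.2% held ACAATG and 29.1% held either, beside 1 of the 5 member windows. A match is not evidence of binding, and its absence concerns these windows alone.

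Signals are on the log2 scale, and a gene was called at a Benjamini-Hochberg adjusted p under 0.05 in limma, adjusted over all 31042 probe sets. Array medians lay between 6.41 and 6.48. The tissue was not free of striated muscle: the skeletal muscle list score, the mean log2 signal of 27 muscle genes, was 11.15 to 11.61 in controls, 11.90 to 12.05 at week 6, 9.45 to 11.02 at week 15 and 11.66 to 11.87 at week 29. The fibroblast and matrix score over 12 genes ran from 10.11 to 10.93 in controls, 10.27 to 10.54 at week 6, 9.12 to 9.69 at week 15 and 10.07 to 10.58 at week 29. The difference between the 3′ and 5′ GAPDH array controls, which grows as RNA degrades, averaged 0.40 ± 0.16 among controls, 0.11 ± 0.04 in week 6 samples, 0.40 ± 0.19 in week 15 samples and 0.17 ± 0.04 in week 29 samples (SD, n = 3 each). The part of these differences in the results below was not tested. Fits with the muscle score or the GAPDH difference as a covariate are given. However, no week 15 muscle score reached those of the other groups. GAPDH differences at weeks 6 and 29 all lay under those of control and week 15 arrays. Where groups do not overlap in the covariate, such a fit cannot tell its part from that of the group.

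The members did not move as 1 group. S100b, the brighter Pmp22 probe set and 1 of the 3 Mbp probe sets were low at week 15 and at control level before and after it. Ngfr was low at weeks 6 and 29. Sox10 and Prx passed no test against control. Against control, limma called 1 of 6 member genes at week 6, 2 at week 15 and 1 at week 29, each of them lower. These comparisons share the 3 control arrays. Of all 14217 genes, 8.83% were called at week 6 (3.76% lower), 9.92% at week 15 (8.38% lower) and 19.3% at week 29 (10.8% lower), so the share of members called at week 29 is near the background. The median log2 change of the 6 members was -0.20 at week 6, -0.30 at week 15 and -0.08 at week 29, beside medians over all genes of -0.03, 0.03 and 0.01.

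**Figure D1:**
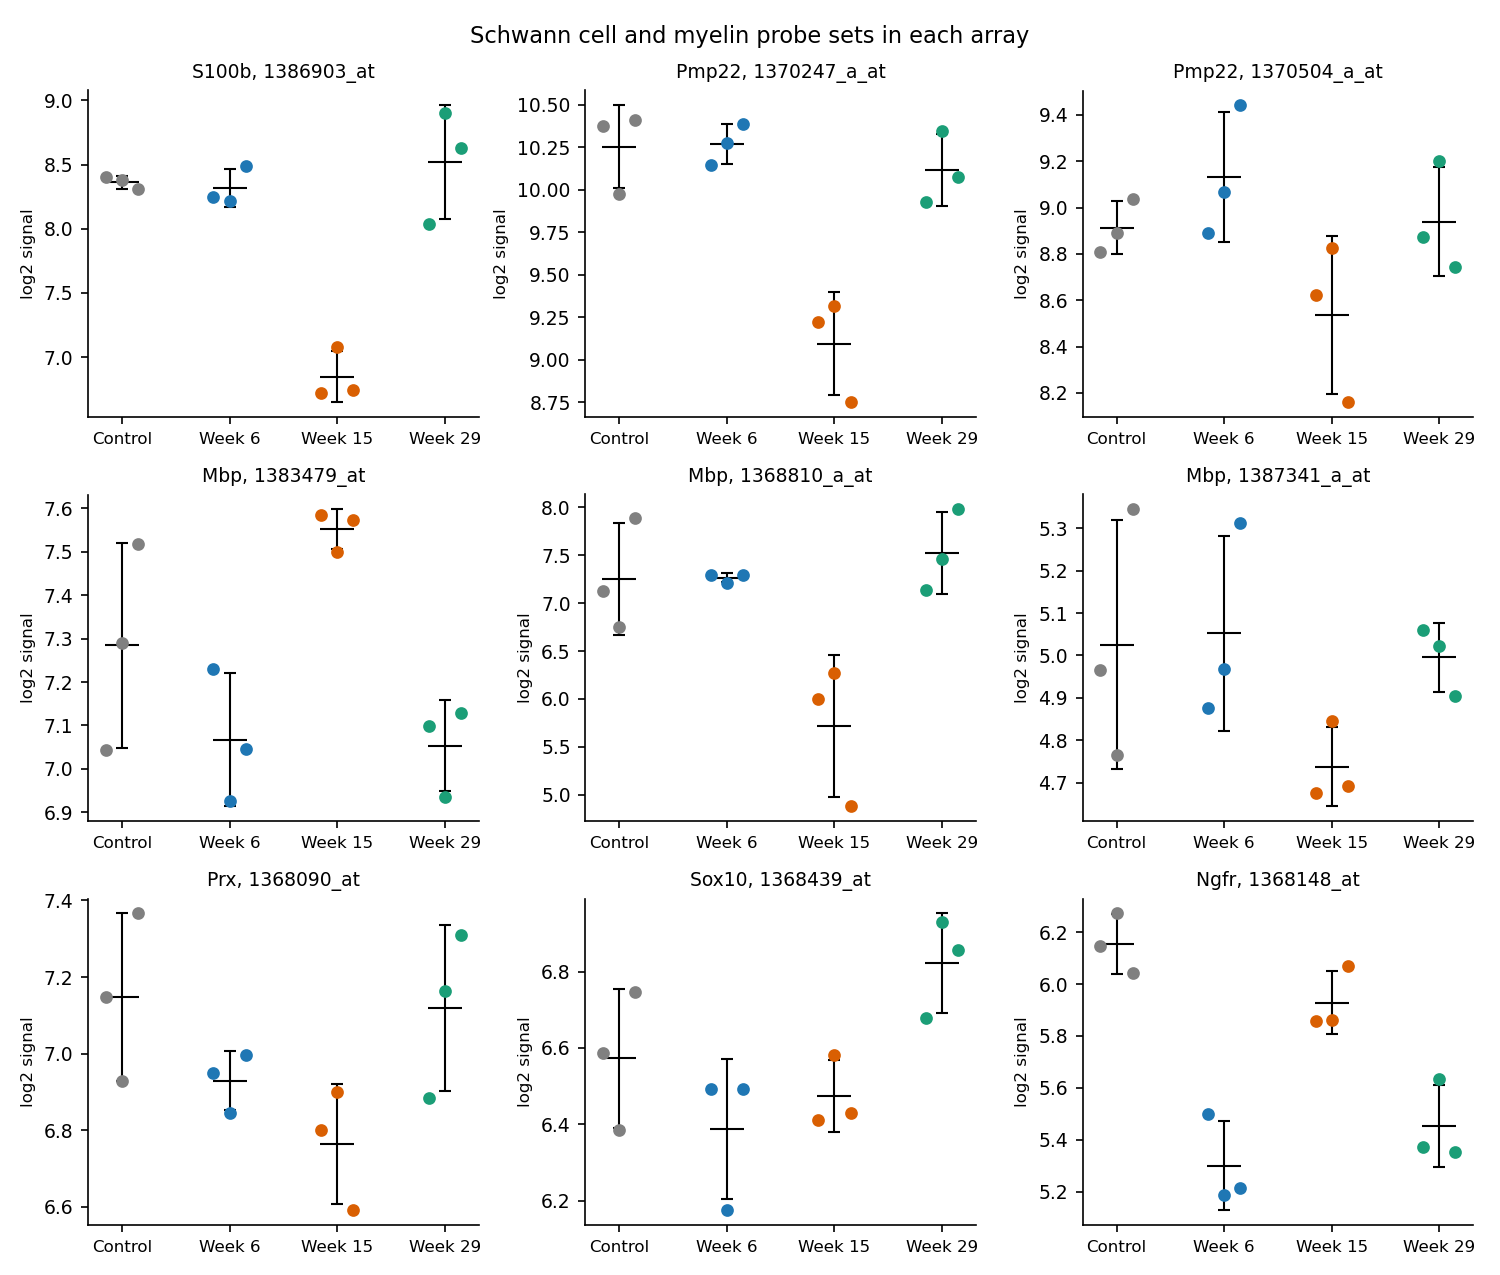
Log2 signal of the 9 probe sets of the 6 Schwann cell and myelin genes (y axis) in each array of the control, week 6, week 15 and week 29 groups (x axis), with points for arrays and bars for the group mean and SD of 3 arrays. S100b, Pmp22 1370247_a_at and Mbp 1368810_a_at drop at week 15, while Ngfr is lowest at weeks 6 and 29.

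S100b gave the clearest separation of week 15. Its log2 signal was 8.40, 8.38 and 8.31 in controls, 8.25, 8.22 and 8.49 at week 6, 6.72, 7.08 and 6.74 at week 15, and 8.03, 8.90 and 8.63 at week 29. All 3 week 15 arrays lay below the other 9 arrays, and the other groups overlapped. S100b fell by 1.52 ± 0.18 on the log2 scale (SE) at week 15 against control, a level 2.86-fold lower (limma, adjusted p = 0.00239), and the call held in all 12 fits that left out 1 array. With the skeletal muscle score as a covariate, the difference was -1.26 ± 0.27 with adjusted p = 0.173, in a fit that called 0 of the 31042 probe sets and in which 4183 had an unadjusted p under 0.05. At week 6 the difference from control was -0.05, with a 95% interval of -0.44 to 0.35, and at week 29 it was 0.16, with an interval of -0.24 to 0.55. In these bulk samples, fewer cells of a type and less RNA per cell cannot be told apart.

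Pmp22 followed S100b. The brighter probe set, 1370247_a_at, read 10.38, 9.97 and 10.41 in controls, 10.15, 10.27 and 10.39 at week 6, 9.22, 9.31 and 8.75 at week 15, and 9.93, 10.35 and 10.08 at week 29. The 3 week 15 values lay below all others, and the remaining groups overlapped. Pmp22 fell by 1.16 ± 0.17 at week 15 against control, 2.23-fold (adjusted p = 0.00422), also in all 12 fits without 1 array. With the muscle score as a covariate the value was -0.79 ± 0.22 (adjusted p = 0.218). The second probe set, 1370504_a_at, read 8.81, 8.89 and 9.04 in controls, 8.89, 9.07 and 9.44 at week 6, 8.62, 8.82 and 8.16 at week 15, and 8.87, 9.20 and 8.74 at week 29. Week 15 was again lowest but overlapped the controls by 1 array. The difference from control was -0.38, with an interval of -0.78 to 0.02 and adjusted p = 0.226.

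The Mbp probe sets disagreed with each other. The brightest, 1383479_at, read 7.04, 7.29 and 7.52 in controls, 7.23, 6.93 and 7.05 at week 6, 7.58, 7.50 and 7.57 at week 15, and 7.10, 6.93 and 7.13 at week 29. Week 15 was thus at the top of its range, overlapping the controls, and its difference from control was 0.27 ± 0.12 (adjusted p = 0.198). Probe set 1368810_a_at ran the other way, at 7.12, 6.75 and 7.88 in controls, 7.29, 7.21 and 7.29 at week 6, 6.00, 6.27 and 4.88 at week 15, and 7.13, 7.46 and 7.98 at week 29. On it Mbp fell by 1.54 ± 0.35 at week 15 against control (adjusted p = 0.0223), with every week 15 array below every other array. That call was lost without control replicate 3 (-1.22, adjusted p = 0.0769) and without week 15 replicate 3 (-1.12, adjusted p = 0.0606). With the muscle score as a covariate the value was -0.50 (adjusted p = 0.592), and in a fit of the 6 arrays of both groups the adjusted p was 0.0953. The dimmest probe set, 1387341_a_at, stayed between 4.68 and 5.34 on all 12 arrays and was not called in any of the 6 comparisons. Its mean was lowest at week 15, at 4.74, against 5.03 in controls, 5.05 at week 6 and 5.00 at week 29. The week 15 arrays overlapped the controls and lay below all week 6 and week 29 arrays. What distinguishes the transcripts these probe sets read was not analysed here, so no direction is given for Mbp as a gene.

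Prx was low at week 15 without passing the test. Its signal was 7.15, 6.93 and 7.37 in controls, 6.95, 6.84 and 7.00 at week 6, 6.80, 6.90 and 6.59 at week 15, and 6.88, 7.16 and 7.31 at week 29. The week 15 arrays all lay below the controls but overlapped the week 6 arrays. The difference from control was -0.38, with an interval of -0.68 to -0.09 and adjusted p = 0.106.

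Sox10 differed little from control at any week and was highest at week 29. Its signal was 6.59, 6.38 and 6.75 in controls, 6.49, 6.18 and 6.49 at week 6, 6.41, 6.58 and 6.43 at week 15, and 6.68, 6.93 and 6.86 at week 29. Week 29 overlapped the controls, and all its arrays lay above all week 6 and week 15 arrays, which overlapped each other and the controls. Differences from control were -0.18 at week 6 (interval -0.45 to 0.08), -0.10 at week 15 (interval -0.36 to 0.17) and 0.25 at week 29 (interval -0.02 to 0.52). At week 15 the Sox10 interval lies above the S100b interval, which was -1.91 to -1.12. The mean Sox10 signal, 6.56, was near the median over probe sets, 6.445. How large a fall such a probe set could show was not tested.

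Ngfr had its own time course. Its signal was 6.15, 6.27 and 6.04 in controls, 5.50, 5.19 and 5.22 at week 6, 5.86, 5.86 and 6.07 at week 15, and 5.37, 5.63 and 5.35 at week 29. All week 6 and week 29 arrays lay below all control and week 15 arrays, which overlapped each other. Ngfr fell by 0.85 ± 0.12 at week 6 (1.81-fold, adjusted p = 0.0147) and by 0.70 ± 0.12 at week 29 (1.63-fold, adjusted p = 0.00856) against control. At week 15 the difference was -0.23, with an interval of -0.48 to 0.03. The week 6 call was lost when 1 array was left out: control 1 (adjusted p = 0.0698), control 3 (0.0521), week 6 array 2 (0.0603) or week 6 array 3 (0.0584). The week 29 call was lost without week 29 replicate 3 (-0.65, adjusted p = 0.0507). With the GAPDH difference as a covariate the values were -0.90 (adjusted p = 0.145) at week 6 and -0.74 (adjusted p = 0.068) at week 29, and with the muscle score -0.80 (adjusted p = 0.0589) at week 6. The mean Ngfr signal lay under the median signal of all probe sets, 6.45.

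Keratinocyte markers, basal and suprabasal, were low in the same groups as Ngfr. The basal keratinocyte score over 9 genes was 11.74 to 11.97 in controls, 11.09 to 11.36 at week 6, 11.82 to 12.17 at week 15 and 10.85 to 11.64 at week 29. Of these genes 3 fell at week 6, 1 at week 15 and 5 at week 29 against control, and 0 rose. Over all genes, 3.76%, 8.38% and 10.8% were called lower at these weeks. The basal keratin Krt14 averaged 12.86 at week 6 and 12.47 at week 29, against 13.70 in controls, a fall of 0.84 (adjusted p = 0.0489) and of 1.23 (adjusted p = 0.0115). Over all probe sets, the week 6 count of 2342 calls ran from 1 to 3454 in the 12 fits without 1 array. The week 29 count of 4705 ran from 274 to 6120. For Krt14 and the other genes outside the members named below, those fits and the covariate fits are not given. How their week 6 and week 29 calls hold is therefore not shown. The suprabasal keratinocyte score over 10 genes was 9.99 to 10.39 in controls, 9.06 to 9.71 at week 6, 10.19 to 11.21 at week 15 and 8.71 to 9.14 at week 29, and 2 of these genes fell at week 6 and 7 at week 29 against control. Across the 12 arrays Ngfr correlated at 0.75 with the basal score and at 0.73 with the suprabasal score. It also correlated at 0.75 with the score of 7 neuregulin and ERBB genes and at 0.64 with the endothelial score. With each remaining list it stood at 0.17 or less. The endothelial score over 9 genes was 8.94 to 9.24 in controls and 8.70 to 8.72 at week 6. It was 8.63 to 9.02 at week 15 and 8.35 to 8.70 at week 29. The part of keratinocytes or endothelial cells in the Ngfr result was not tested.

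**Figure D2:**
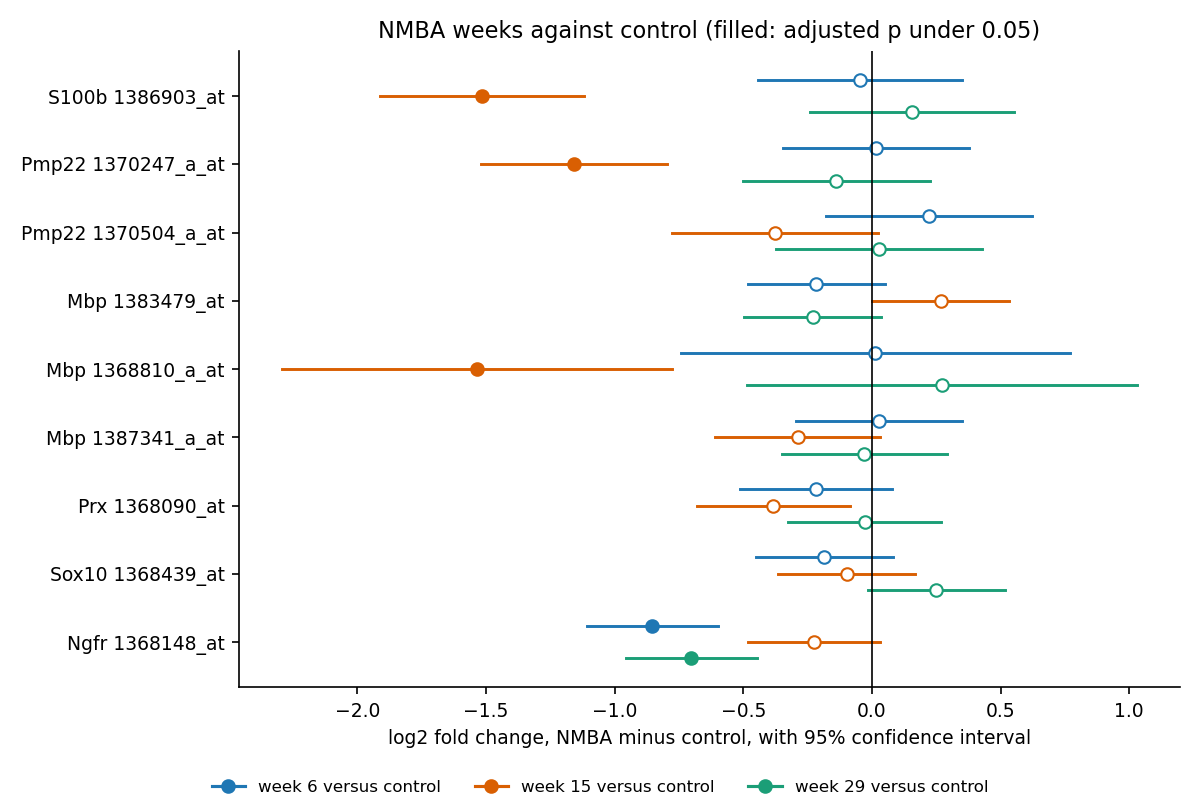
Log2 fold change of each member probe set, NMBA minus control (x axis), at weeks 6, 15 and 29, with 95% confidence intervals from limma and filled points where the adjusted p was under 0.05. Week 15 is far left of 0 for S100b, Pmp22 1370247_a_at and Mbp 1368810_a_at, and weeks 6 and 29 are left of 0 for Ngfr.

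The NMBA weeks were then set against each other. Between week 15 and week 6, 4 of 6 member genes were called on their brightest probe sets, 2 higher and 2 lower. Of all genes, 43.9% were called (22.7% higher and 21.2% lower). Mbp is counted as higher by 1383479_at alone, and its probe set 1368810_a_at was called lower. S100b fell by 1.47 ± 0.18 (adjusted p = 0.000141) and Pmp22 by 1.17 ± 0.17 (adjusted p = 0.000283) at week 15 relative to week 6. Ngfr rose by 0.63 ± 0.12 (adjusted p = 0.00154), and Mbp 1383479_at rose by 0.49 ± 0.12 (adjusted p = 0.0086). Among the further probe sets, Mbp 1368810_a_at fell by 1.55 (adjusted p = 0.00456) and Pmp22 1370504_a_at by 0.60 (adjusted p = 0.023). The last of these was lost without week 6 replicate 3 (-0.44, adjusted p = 0.0991), without week 15 replicate 3 (-0.41, adjusted p = 0.0893), in the 6 arrays alone (adjusted p = 0.0529) and with the GAPDH difference as a covariate (adjusted p = 0.2). The GAPDH covariate also ended the Mbp 1383479_at call, at 0.52 (adjusted p = 0.0691).

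Between week 29 and week 15, S100b, the brighter Pmp22 probe set, both called Mbp probe sets and Ngfr changed in the opposite direction. Here 5 of 6 member genes were called on their brightest probe sets, 3 higher and 2 lower. Of all genes, 43.6% were called (21.1% higher and 22.4% lower). Mbp is counted as lower by 1383479_at alone, and its probe set 1368810_a_at was called higher. S100b rose by 1.67 ± 0.18 (3.19-fold, adjusted p = 7.16e-05), Pmp22 1370247_a_at by 1.02 ± 0.17 (adjusted p = 0.000563) and Mbp 1368810_a_at by 1.81 ± 0.35 (adjusted p = 0.00163). Mbp 1383479_at fell by 0.50 ± 0.12 (adjusted p = 0.00714) and Ngfr by 0.48 ± 0.12 (adjusted p = 0.0074). Sox10 rose by 0.35 ± 0.12 (adjusted p = 0.0429), a call lost in 6 of the 12 fits without 1 array (control replicate 1, week 6 replicate 1, week 15 replicates 1 and 3, week 29 replicates 2 and 3), with adjusted p up to 0.147. With the GAPDH covariate its adjusted p was 0.126. Prx differed by 0.36 (adjusted p = 0.0611), and Pmp22 1370504_a_at by 0.40 (adjusted p = 0.11). With the muscle score as a covariate, 0 of 6 member genes were called in either of these week comparisons, with 3 of them between weeks 15 and 6 and 2 between weeks 29 and 15 at an unadjusted p under 0.05. The fit called 0 of 31042 probe sets between weeks 15 and 6 (5880 at an unadjusted p under 0.05) and 296 between weeks 29 and 15. In it S100b differed by -1.09 ± 0.35 between weeks 15 and 6 and by 1.34 ± 0.32 between weeks 29 and 15. Mbp 1383479_at differed by 0.56 and -0.57, Ngfr by 0.47 and -0.34, and Pmp22 1370247_a_at by -0.63 and 0.54, in the same order. Mbp 1368810_a_at differed by -0.03 and 0.47. Both comparisons share the week 15 arrays, so the opposite signs are not independent of each other.

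Week 29 and week 6 could not be separated by limma in any gene: 0 of 6 members and 0% of all genes were called, the smallest adjusted p over all probe sets was 0.172, and 3005 of 31042 probe sets had an unadjusted p under 0.05. Among the members this unadjusted level was reached by Sox10 alone, at 0.43 (interval 0.17 to 0.70, adjusted p = 0.355), with all week 29 arrays above all week 6 arrays. S100b differed by 0.20 (interval -0.19 to 0.60) and Ngfr by 0.15 (interval -0.10 to 0.41).

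Across the 12 arrays, S100b and Pmp22 1370247_a_at correlated at a Pearson r of 0.93, S100b and Mbp 1368810_a_at at 0.87, and Pmp22 and Mbp 1368810_a_at at 0.91. S100b and Mbp 1383479_at correlated at -0.79, both of these Mbp probe sets at -0.60, and S100b and Ngfr at -0.32. These values describe arrays that share the week 15 shift. With group means removed, S100b and Pmp22 stood at 0.57 and Prx and Mbp 1368810_a_at at 0.91. Before that removal, S100b, Pmp22 1370247_a_at, Prx, Sox10 and Mbp 1368810_a_at all correlated positively with one another, at 0.28 to 0.93. Ngfr and Mbp 1383479_at correlated negatively with each of them, at -0.02 to -0.79. The members as a whole therefore did not share 1 direction, and the set is named here by its genes.

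The genes most like each member over the 12 arrays were ranked by Pearson r among 13888 genes with non-provisional names. For S100b they were Gap43, a growth-cone protein of axons and non-myelinating Schwann cells, at 0.98, C1qtnf3 at 0.98 and Anxa5 at 0.97. Pmp22 was most like Ndn at 0.99, the matrix proteoglycan Lum at 0.98 and the growth factor receptor Fgfr1 at 0.98. Mbp 1368810_a_at was most like Lgi4, a secreted Schwann cell protein needed for myelination in mice, at 0.96, and Mbp 1383479_at was most like the interferon-induced Bst2 at 0.94. Ngfr was most like Sox13 at 0.94, Sri at 0.92 and Skil at 0.92. Prx led with Sfrp5 at 0.91 and Sox10 with Gys2 at 0.88.

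Other Schwann cell and myelin genes were called in both directions. The list holds 31 genes analysed here. Against control, 1 rose (Ncam1) and 3 fell (Pllp, Ndrg1 and Adgrg6) at week 6, 3 rose (Cnp, Gjb1 and Pou3f1) and 5 fell (Gap43, Lama2, Lgi4, Scn7a and Plekhb1) at week 15, and 2 rose (Ncam1 and Plekhb1) and 2 fell (Ndrg1 and Adgrg6) at week 29. Several of these are named because the counts are small, after their values were seen. The list's median change at week 15 was 0.00, beside 0.03 over all genes. The share of all genes called against control was 8.83% at week 6, 9.92% at week 15 and 19.3% at week 29.

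Lama2, the laminin chain of the Schwann cell and muscle basement membrane, read 7.85, 8.16 and 7.52 at week 15, against 9.28, 9.25 and 9.33 in controls, and fell by 1.45 ± 0.16 (adjusted p = 0.00221). Gap43 read 6.19, 6.57 and 6.24 at week 15, against 7.24, 7.13 and 7.20 in controls, and fell by 0.86 ± 0.13 (adjusted p = 0.00521). Neither had week 15 arrays that overlapped the controls. The sodium channel gene Scn7a, found in non-myelinating Schwann cells, fell by 1.28 (adjusted p = 0.0088) and Lgi4 by 0.93 (adjusted p = 0.015). Plekhb1 fell by 1.30 at week 15 (adjusted p = 0.00805) and rose by 0.84 at week 29 (adjusted p = 0.028). Adgrg6, a receptor that starts myelination in mouse and zebrafish, had the course of Ngfr instead, and fell by 0.45 at week 6 (adjusted p = 0.0264) and by 0.50 at week 29 (adjusted p = 0.0132), with a difference of 0.03 at week 15.

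Among 17 measured ligands and receptors of the neurotrophin and GDNF families, 1 fell at week 15 and 2 rose at week 29 against control. Of all genes, 9.92% were called at week 15 and 19.3% at week 29, so neither count is above the background share. Ret, the signaling receptor for GDNF ligands, read 4.44, 4.38 and 4.36 at week 15, against 5.16, 5.54 and 5.53 in controls, and fell by 1.02 ± 0.17 (adjusted p = 0.00797). At week 29 Ret rose by 0.63 (adjusted p = 0.031) and its co-receptor Gfra1 by 0.44 (adjusted p = 0.0356). Neuregulin signals through ERBB receptors drive Schwann cell growth and myelin thickness. Of 7 such genes, Erbb2 fell by 0.64 at both week 6 (adjusted p = 0.0411) and week 29 (adjusted p = 0.0284), and the sheddase gene Adam17 fell by 0.40 at week 29 (adjusted p = 0.036). These calls were not followed in the fits without 1 array or with the GAPDH covariate. Over all genes, 3.76% were called lower at week 6 and 10.8% at week 29. At week 15 Erbb2 differed from control by 0.32, with an interval of -0.05 to 0.68. Between weeks 15 and 6, 4 of the 7 genes rose (Adam17, Erbb2, Erbb3 and Nrg2), beside 22.7% of all genes. The same 4 fell between weeks 29 and 15, beside 22.4% of all genes. Which cells of the tissue gave these signals was not tested, so no change of Schwann cell signaling is read from them.

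Of 24 measured genes of neurons and axons, 1 fell at week 6 (Nefh) and 5 fell at week 15 (Nefl, Prph, Stmn2, Snap25 and Vip) against control. At week 29, 3 rose (Nefl, Snap25 and Nos1) and 1 fell (Nefh). The share of all genes called was 8.83% at week 6, 9.92% at week 15 and 19.3% at week 29. Vip, a peptide transmitter of enteric neurons, read 5.48, 5.98 and 4.84 at week 15, against 6.50, 6.95 and 7.64 in controls, and fell by 1.60 ± 0.34 (adjusted p = 0.0186). Prph, the intermediate filament of peripheral neurons, fell by 1.12 ± 0.22 (adjusted p = 0.0147). Nefh, the heavy neurofilament, fell by 0.39 at week 6 (adjusted p = 0.0372) and 0.40 at week 29 (adjusted p = 0.0232).

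**Figure D3:**
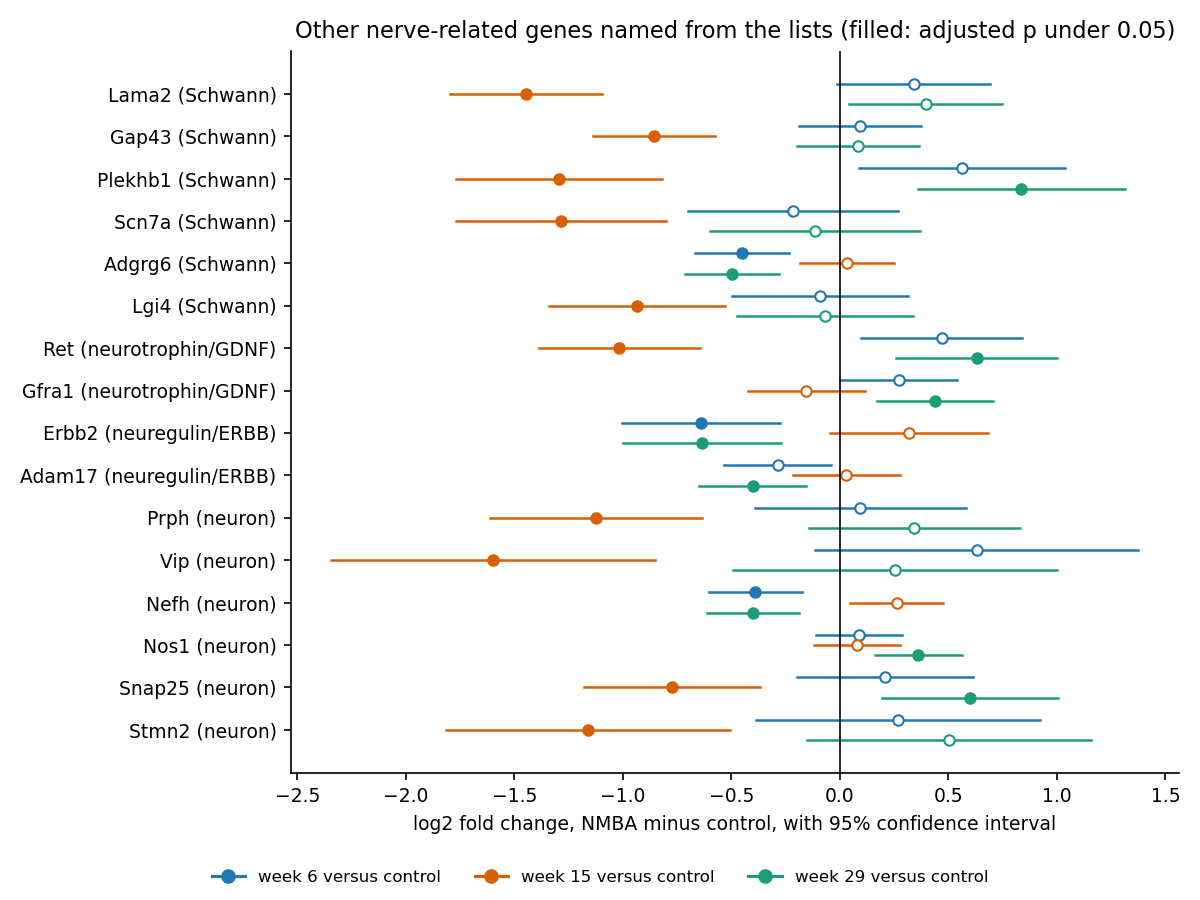
Log2 fold change, NMBA minus control (x axis), of 16 genes named from the Schwann cell, neurotrophin and GDNF, neuregulin and neuron lists at weeks 6, 15 and 29, with 95% confidence intervals from limma and filled points where the adjusted p was under 0.05. Lama2, Gap43, Ret, Prph and Vip are left of 0 at week 15, whereas Adgrg6, Erbb2 and Nefh are left of 0 at weeks 6 and 29.

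Other tissue components were also lower at week 15. Of 27 skeletal muscle genes 7 fell and 0 rose against control, with a median change of -1.04, and of 12 fibroblast and matrix genes 11 fell and 0 rose, with a median of -1.14. Over all genes, 8.38% were called lower at week 15. The adipocyte score over 9 genes was 6.26 to 6.43 in controls and 6.51 to 6.57 at week 6. It was 5.91 to 6.24 at week 15 and 6.39 to 6.76 at week 29. Of its genes 2 fell at week 15 against control, with a list median of -0.01. S100b correlated at 0.84 with the adipocyte score, 0.85 with muscle, 0.84 with fibroblast and 0.83 with the neuron and axon score. At week 6 the median change was 0.46 for the muscle list and -0.14 for the fibroblast list, and at week 29 it was 0.41 and -0.20. Between weeks 15 and 6, 25 of the 27 muscle genes and 9 of the 12 fibroblast genes fell. Meanwhile 8 of 9 basal keratinocyte genes and 9 of 10 suprabasal keratinocyte genes rose, and the remaining basal gene, Dst, fell. Of all genes, 22.7% were called higher and 21.2% lower. Between weeks 29 and 15, 8 of the basal and 9 of the suprabasal genes fell, and Dst rose. Here 21.1% of all genes were called higher and 22.4% lower. The part of these tissues in the fall of S100b, Pmp22 and Mbp 1368810_a_at was not tested. The fits with the muscle score above cannot tell that score from week 15, whose arrays all lay below the others on it.

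**Figure D4:**
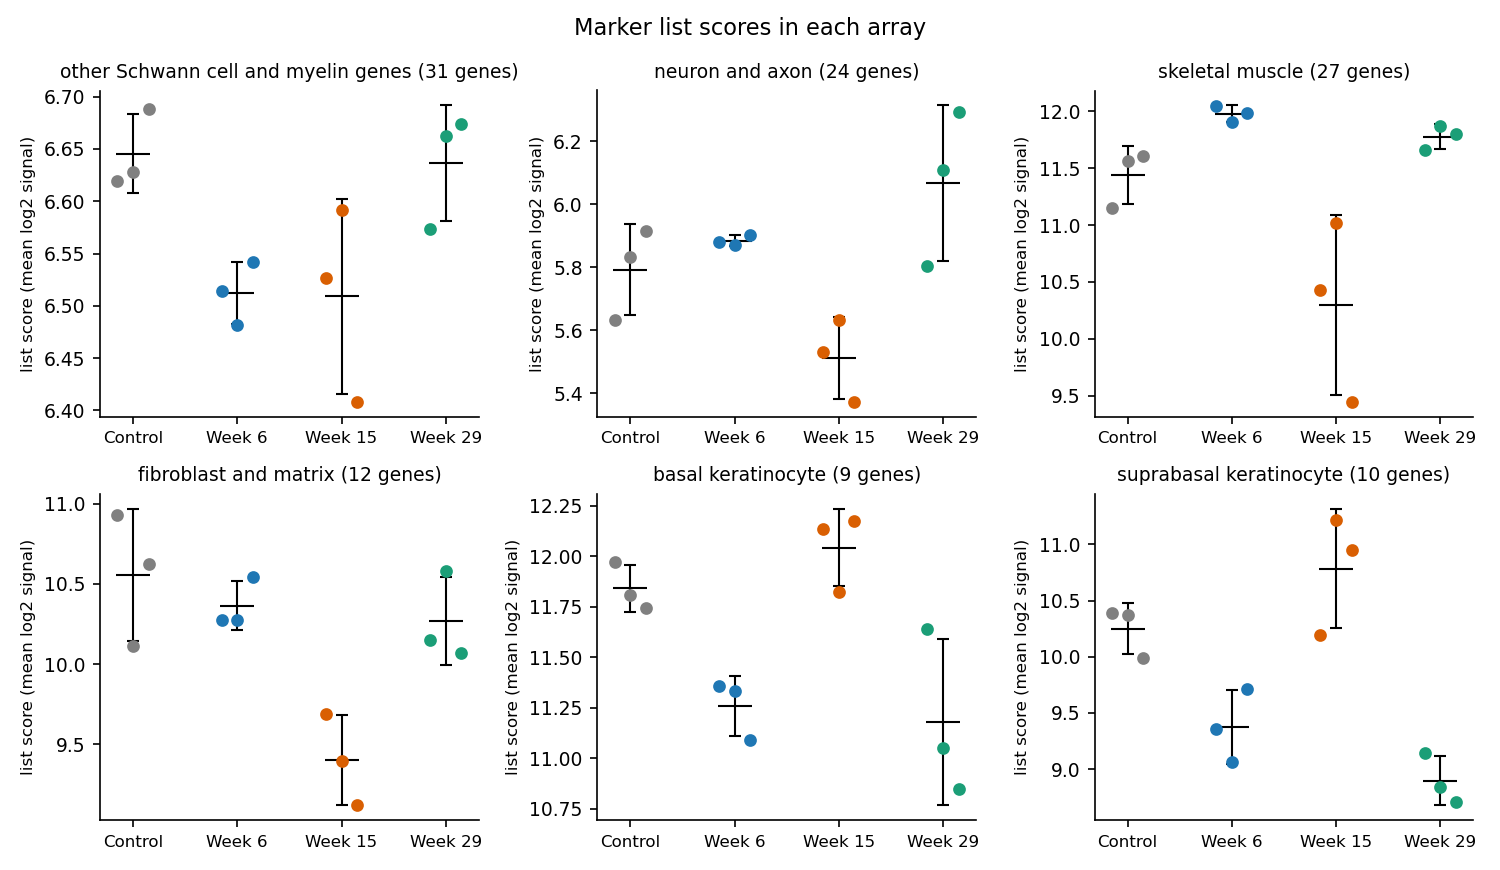
Mean log2 signal of each gene list (y axis) in each array of the control, week 6, week 15 and week 29 groups (x axis), with points for arrays and bars for the group mean and SD of 3 arrays. Skeletal muscle and fibroblast scores are lowest at week 15, and the basal and suprabasal keratinocyte scores are lowest at weeks 6 and 29.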

How the data were processed

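The deposited values were log2 signals of probe sets, with a column for each array. Per the submitters' processing notes the authors used Affymetrix Expression Console; version, summarization method and genome build are not given in the sources used. That the values were on a log2 scale was read from their range, 2.49 to 14.71. Without scanner files, signal could not be set against background, and precision is limited by how many arrays there were.

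The 57 control probe sets of the array were removed from 31099. The platform annotation gave 1 symbol to 20826 probe sets, several to 436 and none to 9780, and 20758 gene identifiers matched RefSeq with 0 symbols changed. Values were fitted as deposited in limma 3.58.1 (R 4.3.3; lmFit, eBayes, two-sided), 1 fit of 12 arrays with 8 residual degrees of freedom, no filter, and 6 comparisons. No 2 arrays held the same values throughout.

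The members and lists were chosen with earlier results of these data known. Named list genes are up to 6 per nerve-related list with the lowest adjusted p among those called against control; the 3 genes most like each member were ranked by r. In simulated data for week 15 versus control, on 31042 probe sets, the fit recovered 64% of 50 changed 1.5-fold, 78% of 50 at 2-fold, 98% of 50 at 3-fold and 98% of 50 at 4-fold, and 5 of 174 calls were false. Alternatives were a replicate block, median and quantile scaling, a dim filter, the 6 arrays compared, a mean-variance trend, 2 covariates and leaving out each array.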

Additional observations from a re-analysis of the deposited data

Results flagged for a closer look

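Several member probe sets differed from control by different amounts at different weeks, as the direct test of 1 NMBA week against another showed (limma, adjusted p under 0.05). Between week 15 and week 6 the difference in effect was -1.47 for S100b, -1.17 for Pmp22 1370247_a_at, -0.60 for Pmp22 1370504_a_at, -1.55 for Mbp 1368810_a_at, 0.49 for Mbp 1383479_at and 0.63 for Ngfr, on the log2 scale. Between week 29 and week 15 it was 1.67 for S100b, 1.02 for Pmp22 1370247_a_at, 1.81 for Mbp 1368810_a_at, 0.35 for Sox10, -0.50 for Mbp 1383479_at and -0.48 for Ngfr. Groups of 3 arrays are too small for the check on single outlying samples.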

How the results depend on the processing

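With the skeletal muscle score as a covariate, 0 member genes were called at week 6 or week 15 against control, between weeks 15 and 6 or between weeks 29 and 15, where 2, 2, 3 and 2 had an unadjusted p under 0.05. The fitted differences below are between weeks 15 and 6 and between weeks 29 and 15, with those of the main fit in brackets. They were -1.09 and 1.34 for S100b (-1.47 and 1.67) and 0.47 and -0.34 for Ngfr (0.63 and -0.48). Mbp 1383479_at had 0.56 and -0.57 (0.49 and -0.50). Pmp22 1370247_a_at had -0.63 and 0.54 (-1.17 and 1.02), and Mbp 1368810_a_at had -0.03 and 0.47 (-1.55 and 1.81). Probe sets thus differed in how much of the difference remained, though these fits cannot tell the muscle score from the groups. The loss of a call alone does not show that a difference was gone. Pmp22 1370504_a_at turned to 0.12 (adjusted p = 0.851) between weeks 15 and 6. With the GAPDH difference as a covariate, and likewise under the filter on dim probe sets, which left Ngfr untested, 0 member genes were called at week 6 or week 29 against control (1 and 1 at an unadjusted p under 0.05 with GAPDH, 0 and 0 under the filter). Leaving out 1 array gave 0 to 1 called member genes at week 6, 2 at week 15, 0 to 1 at week 29, 4 between weeks 15 and 6, 4 to 6 between weeks 29 and 15 and 0 between weeks 29 and 6. Replicate numbers did not pair the arrays: same-numbered arrays correlated at -0.41 to 0.29 after group means were removed, 8 of 18 pairs were over 0.1, and 3 of 12 arrays correlated best with their own number. The replicate block gave 1, 2, 1, 4, 4 and 0 called member genes in the order of comparisons above, and Sox10 lost its call between weeks 29 and 15 (adjusted p = 0.0576).

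Counts over all probe sets moved by more than 1.5 times as follows. At week 15 against control 2455 became 135 in the 6 arrays alone, 0 with the muscle score, 881 without control replicate 2, 927 without control replicate 3 and 1015 without week 15 replicate 3. At week 6, 2342 became 4391 in the 6 arrays alone, 1 with the muscle score, 8 with GAPDH, and 3, 1, 57, 1, 3 and 1377 when control 1, control 3, week 6 arrays 1, 2 and 3 or week 29 array 2 was left out. At week 29, 4705 became 2933 with the muscle score, 132 with GAPDH, and 689, 976, 769 and 274 when control 1, control 3 or week 29 arrays 2 or 3 was left out. Between weeks 15 and 6, 11723 became 0 with the muscle score and 4849 with GAPDH, and between weeks 29 and 15, 10987 became 296 and 6915. The cause was not tested. Prx passed the threshold between weeks 29 and 15 under median subtraction (0.0322), quantile normalization (0.0423) and the dim filter (0.0451). In the simulation with 3 arrays a group, 64% of 1.5-fold changes were recovered, under independent noise that these arrays need not share.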

Other observations

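Mitf, the melanocyte transcription factor, averaged 7.99 at week 6, 6.39 at week 15 and 7.94 at week 29, against 7.38 in controls. Mitf rose by 0.61 ± 0.14 at week 6 (limma, adjusted p = 0.0281), fell by 0.99 ± 0.14 at week 15 (adjusted p = 0.00386) and rose by 0.56 ± 0.14 at week 29 (adjusted p = 0.0234). It was the 1 called gene of 7 measured melanocyte markers in each comparison with control, chosen for mention after its values were seen. Between weeks 15 and 6 Mitf fell by 1.59 (adjusted p = 4.15e-05), while the melanocyte markers Dct (0.44, adjusted p = 0.0186) and Pmel were called higher. No change of melanocytes is read from Mitf. Of 9 measured adipocyte genes, 2 fell at week 15 (Fabp4 and Lpl) and Lpl alone rose at weeks 6 and 29. The share of all genes called against control was 8.83% at week 6, 9.92% at week 15 and 19.3% at week 29.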
